A study of Mus musculus with 12 samples.

Results

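The genes described here are 7 in number: Meis1, Meis2 and Meis3, Pbx2 and Pbx3, and Nr2f1 and Nr2f2. They were listed by name, out of 21755 protein-coding genes on 20 chromosomes (1 to 19 and X), and their chromatin contacts were followed in all 6 interaction tables of the study. For each gene, the interactions counted were those with an anchor that overlapped the gene window, meaning the gene body (mm10) with 20 kb added on each side. A partner was the other anchor of such an interaction, where its midpoint lay outside the window and within 2 Mb of the window edge.

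The study compared mouse embryonic stem cells (ESC) with neuronal committed cells (NCC). ESC were of the E14Tg2A line, held undifferentiated in medium with LIF at 100 U/mL. NCC came from the same line after 48 h with 1 µM retinoic acid in medium without LIF, so both groups share 1 line and the NCC were made in culture by 1 agent. Hi-C records contacts over all chromatin, and HiChIP adds a pull-down, here with antibodies to FGFR1 or to the architectural protein CTCF. There were 12 samples in 6 groups of 2, a group being 1 assay in 1 cell type. The authors merged the replicates of a group before deposit, so each group is 1 pooled library with no replicate error. A test below compares pooled libraries, not the conditions. Since the replicates were merged, 95% intervals cover counting error only, and they take read pairs as independent. The values are contacts and not expression, so the cell type labels could not be checked against marker genes.

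Meis and Pbx proteins are homeodomain proteins of the TALE class, which bind DNA together with Hox proteins and sharpen the choice of their targets along the body axis. Meis proteins bind Pbx proteins directly, and Pbx proteins carry the contact with Hox. The Nr2f proteins, also called COUP-TF, are orphan nuclear receptors that bind direct repeats of a short half-site. In embryo cells and stem cells, Meis and Nr2f genes are known as genes that retinoic acid turns on, and several of them lie beside long stretches with no coding gene, where developmental enhancers are often found.

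Sequences of 2 kinds were searched on both strands of the gene windows, because they mark where CTCF or a retinoic acid receptor could sit beside the contacts: the core of the CTCF motif (12 bases, given by name) and a direct repeat of nuclear receptor half-sites with a spacing of 5 bases (DR5, given by name). The CTCF core was found at 2 places for Meis2 and 1 for Pbx3, and in none of the other members, while 42.7% of all gene windows of protein-coding genes held at least 1. DR5 was found at 3 places for Meis2 and 1 for Meis1, and at none for the others, against 25.6% of all windows. Windows differ in length, from 46.1 kb (Pbx2) to 243 kb (Meis2), so densities are given as well. Per 100 kb, the CTCF core had 0.824 sites at Meis2 and 0.414 at Pbx3, against 0.65 over all windows. DR5 had 1.24 at Meis2 and 0.558 at Meis1, against 0.369. Capitals mark the matched stretch, which in DR5 takes in the 5 spacer bases of any letter. Each sequence is read 5′ to 3′ on its own strand from RefSeq GRCm38.p6.
Meis2 CTCF core, chr2:115855959-115855970, plus strand, in the flank beyond the 3′ end: ccctgaaggCCAGCAGGGGGCgctctgatg
Meis2 CTCF core, chr2:116059692-116059703, plus strand, in the gene body: aagaagaaaCCAGCAGGTGGCcgggcaaaa
Pbx3 CTCF core, chr2:34364334-34364345, minus strand, in the gene body: gcatcagctCCAGCAGGTGGCttttacatt
Meis1 DR5, chr11:18907783-18907799, plus strand, in the gene body: tgtcagGGGTCAGCTCAAGGTCAggtacg
Meis2 DR5, chr2:115869336-115869352, plus strand, in the gene body near the 3′ end: agttagGGGTCACTCAGAGGTCAgtgcca
Meis2 DR5, chr2:115870766-115870782, plus strand, in the gene body near the 3′ end: gttagaGGTTCACTCGCAGGTCAtttctt
Meis2 DR5, chr2:116071242-116071258, minus strand, 5.40 kb upstream of the gene start: cggagaAGGTCAAAAACAGTTCAcaagga
These are matches of letters and not measured binding sites. The Hi-C anchor over both DR5 matches near the 3′ end of Meis2 held 419 read-pair ends in ESC and 942 in NCC. It ran from chr2:115865493-115875276 in ESC and to position 115887555 in NCC, so the higher value came with a longer called length. The anchor over the Meis1 match held 46 ends in ESC and 96 in NCC, where it began at position 18904928 in place of 18906063. The match upstream of Meis2 lay in an anchor with 293 and 268 Hi-C ends, and in CTCF HiChIP with 7 and 42, the latter called from position 116068475 in NCC against 116070864 in ESC. The Meis2 CTCF core beyond the 3′ end lay in a CTCF HiChIP anchor of 22 ends in ESC and 25 in NCC. The core in the Meis2 gene body lay in no anchor of the 6 tables. The Pbx3 core lay in a CTCF HiChIP anchor of 11 ends in ESC and in none in NCC. The Meis2 DR5 match at position 115869336 lay in an FGFR1 HiChIP anchor of 25 ends in ESC and in none in NCC. In CTCF HiChIP this match lay in no anchor in ESC and in an anchor of 18 ends in NCC.

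The members differ in size and surroundings. Meis1 (ENSMUSG00000020160.18, chr11:18879817-19018985, minus strand, 139 kb), Meis2 (ENSMUSG00000027210.20, chr2:115863064-116065839, minus strand, 203 kb) and Pbx3 (ENSMUSG00000038718.15, chr2:34171457-34373142, minus strand, 202 kb) are long genes with no other coding gene in the window. Nr2f1 (ENSMUSG00000069171.14, chr13:78188973-78199757, minus strand, 10.8 kb) and Nr2f2 (ENSMUSG00000030551.14, chr7:70351944-70366735, minus strand, 14.8 kb) are short and also stand alone. Meis3 (ENSMUSG00000041420.18, chr7:16175090-16186504, plus strand, 11.4 kb) shares its window with Slc8a2 and Dhx34, and Pbx2 (ENSMUSG00000034673.14, chr17:34591266-34597400, plus strand, 6.14 kb) with 7 coding genes, among them Notch4 and Ager. In these windows, contacts of the member and of its neighbors cannot be told apart.

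The tables differed in depth. The ESC tables held 20745652 (Hi-C), 2662606 (FGFR1) and 1218098 (CTCF) read pairs on the 20 chromosomes, and those of NCC 21228099, 3203872 and 1056437. Of these the 7 windows took 20033, 2529 and 1002 in ESC, and 20620, 3284 and 1285 in NCC. Per kb of window and 1000000 read pairs of the table, Hi-C ends were densest at Pbx2, with 4.39 in ESC and 4.19 in NCC. The other members lay between 1.08 (Meis1) and 1.92 (Nr2f2) in ESC, and between 0.756 (Nr2f1) and 1.64 (Nr2f2) in NCC. Nr2f1 thus had the lowest density in NCC, where anchors covered 18.2 kb of its window against 23.6 kb in ESC.

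Within 2 Mb, the Hi-C ratios of NCC over ESC ran from 0.741 (Meis3) to 1.19 (Meis2), with each table scaled to its total. In these bulk libraries, more cells with a contact and a more frequent contact per cell cannot be told apart. A member was called where its scaled count was higher by 25% or more in 1 of the cell types. None of the 7 was called higher in NCC, where 11.0% of 20043 genes tested were, and 1 of 7 (Meis3) was called higher in ESC, where 21.2% of genes were (32.2% in either direction). The median ratio of NCC over ESC was 0.893 over the members and 0.951 over all genes tested. By the exact binomial test with adjustment over all genes (Benjamini-Hochberg), 1 member was higher in NCC and 4 were higher in ESC, against 21.3% and 38.2% of all genes. At this depth the test passed 59.5% of all genes, so ratios are given first below.

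Meis2 had 1235 partner read pairs in ESC and 1509 in NCC, a ratio of 1.19 (95% interval 1.11 to 1.29, exact binomial test, adjusted p = 1.42e-05), which was above the ratio of 85.5% of genes. Meis1 had 1171 and 1302 (1.09, interval 1.00 to 1.18, exact adjusted p = 0.0665), and Nr2f2 had 827 and 893 (1.06, interval 0.959 to 1.16). These 3 genes lay above the median of all genes. The log2 ratio of Meis2 went from 0.26 to 0.05 (exact adjusted p = 0.511) without the 1% strongest anchors. These were picked in each library on its own, so the anchors left out can differ between the cell types. With anchors shared by both cell types only, the log2 ratio of Meis2 was 0.11 (exact adjusted p = 0.125).

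Pbx3 had the most partner read pairs of the members, 2554 in ESC and 2188 in NCC, a ratio of 0.837 (interval 0.790 to 0.887, exact adjusted p = 6.70e-09). Pbx2 followed with 1490 and 1362 (0.893, interval 0.829 to 0.962, exact adjusted p = 0.00590). Nr2f1 had the fewest, 343 and 282 (0.804, interval 0.684 to 0.943, exact adjusted p = 0.0139). The Nr2f1 call was lost with a flank of 50 kb (log2 ratio -0.18 in place of -0.32, exact adjusted p = 0.146), with scaling to the median of all genes (-0.24, exact adjusted p = 0.0656) and by the methods' paired test over bins. These ratios lay below the median of all genes, though for Pbx2 by little.

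**Figure D1:**
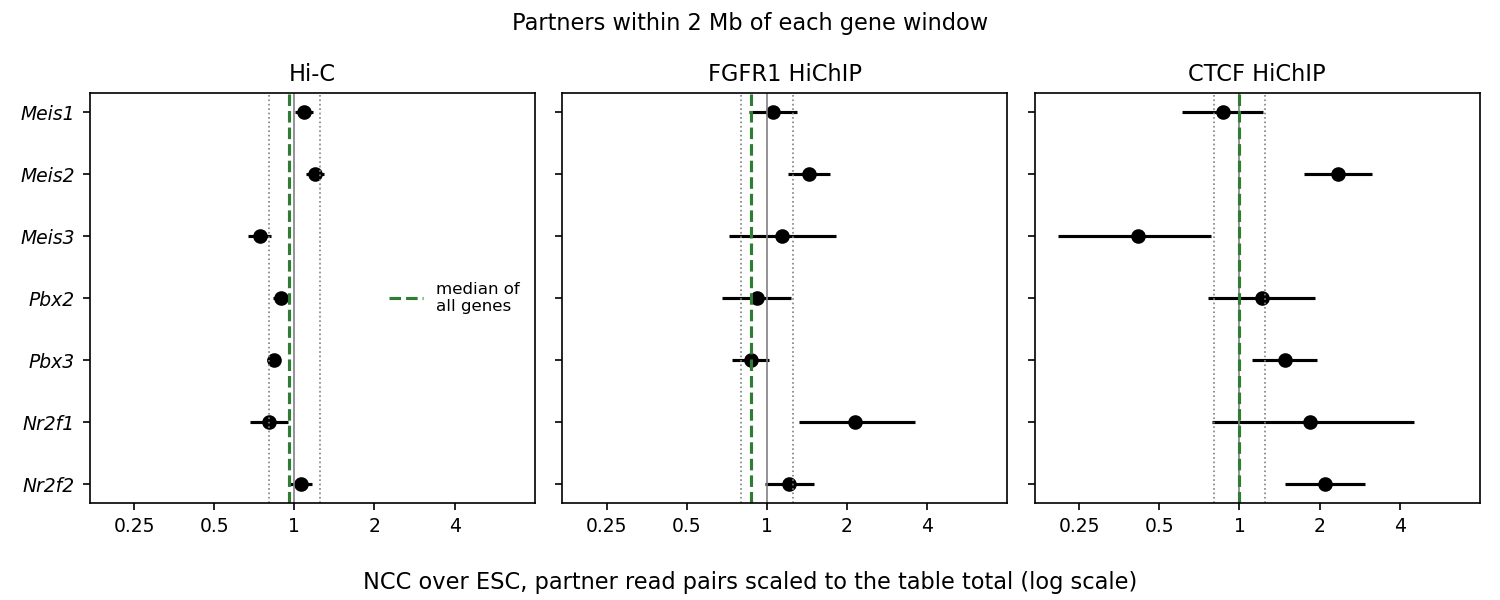
Read pairs with partners within 2 Mb of each gene window, as NCC over ESC scaled to the table total, on a log scale, for Hi-C, FGFR1 HiChIP and CTCF HiChIP. Points are ratios of pooled libraries with 95% exact intervals from counting error, the dashed line is the median of all genes tested, dotted lines mark 25% higher in either cell type, and Hi-C ratios run from 0.741 (Meis3) to 1.19 (Meis2), while CTCF HiChIP reaches 2.34 at Meis2.

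Meis3 had 955 partner read pairs in ESC and 724 in NCC, a ratio of 0.741 (interval 0.672 to 0.817, exact adjusted p = 6.78e-09), the only call of the 7. This ratio turned on the edge of the window. The anchor across the upstream edge was called as chr7:16146153-16161747 (15595 bp) in ESC, where it held 387 pairs or 40.5% of all Meis3 partners, and as chr7:16152331-16161747 (9417 bp) in NCC, where it held 171 pairs or 23.6%. Without anchors across an edge, Meis3 had 405 pairs in ESC and 435 in NCC, a ratio of 1.05 (interval 0.915 to 1.21). With a window flank of 10 kb the log2 ratio was 0.26 in place of -0.43, so no direction can be given for Meis3. Leaving such anchors out kept the side of 1 for the other members, with ratios of 1.04 (Meis1), 1.19 (Meis2), 0.898 (Pbx2), 0.799 (Pbx3), 0.693 (Nr2f1) and 1.15 (Nr2f2). Pbx2 was also open to the window, since its log2 ratio was 0.22 with a flank of 10 kb and -0.16 with 20 kb.

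The totals hid differences between the upstream and the downstream side of single genes, where upstream is the side of the gene start. On the upstream side 1 of 7 members (Nr2f2) was called higher in NCC, against 12.5% of 19385 genes, and 1 (Meis3) in ESC, against 23.5%. On the downstream side 2 (Meis1 and Meis2) were called higher in NCC, against 12.9% of 19395 genes, and 3 (Nr2f1, Nr2f2 and Pbx2) in ESC, against 22.9% (35.8% either way). By the exact test, 1 and 2 members passed upstream toward NCC and ESC, against 17.4% and 31.0% of genes (48.4% either way), and 2 and 4 passed downstream, against 17.6% and 31.1% (48.8% either way). Because anchors were called in each library on its own, the ratio of all read-pair ends in a flank, and in most cases the length covered by anchors, are given beside these values.

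**Figure D2:**
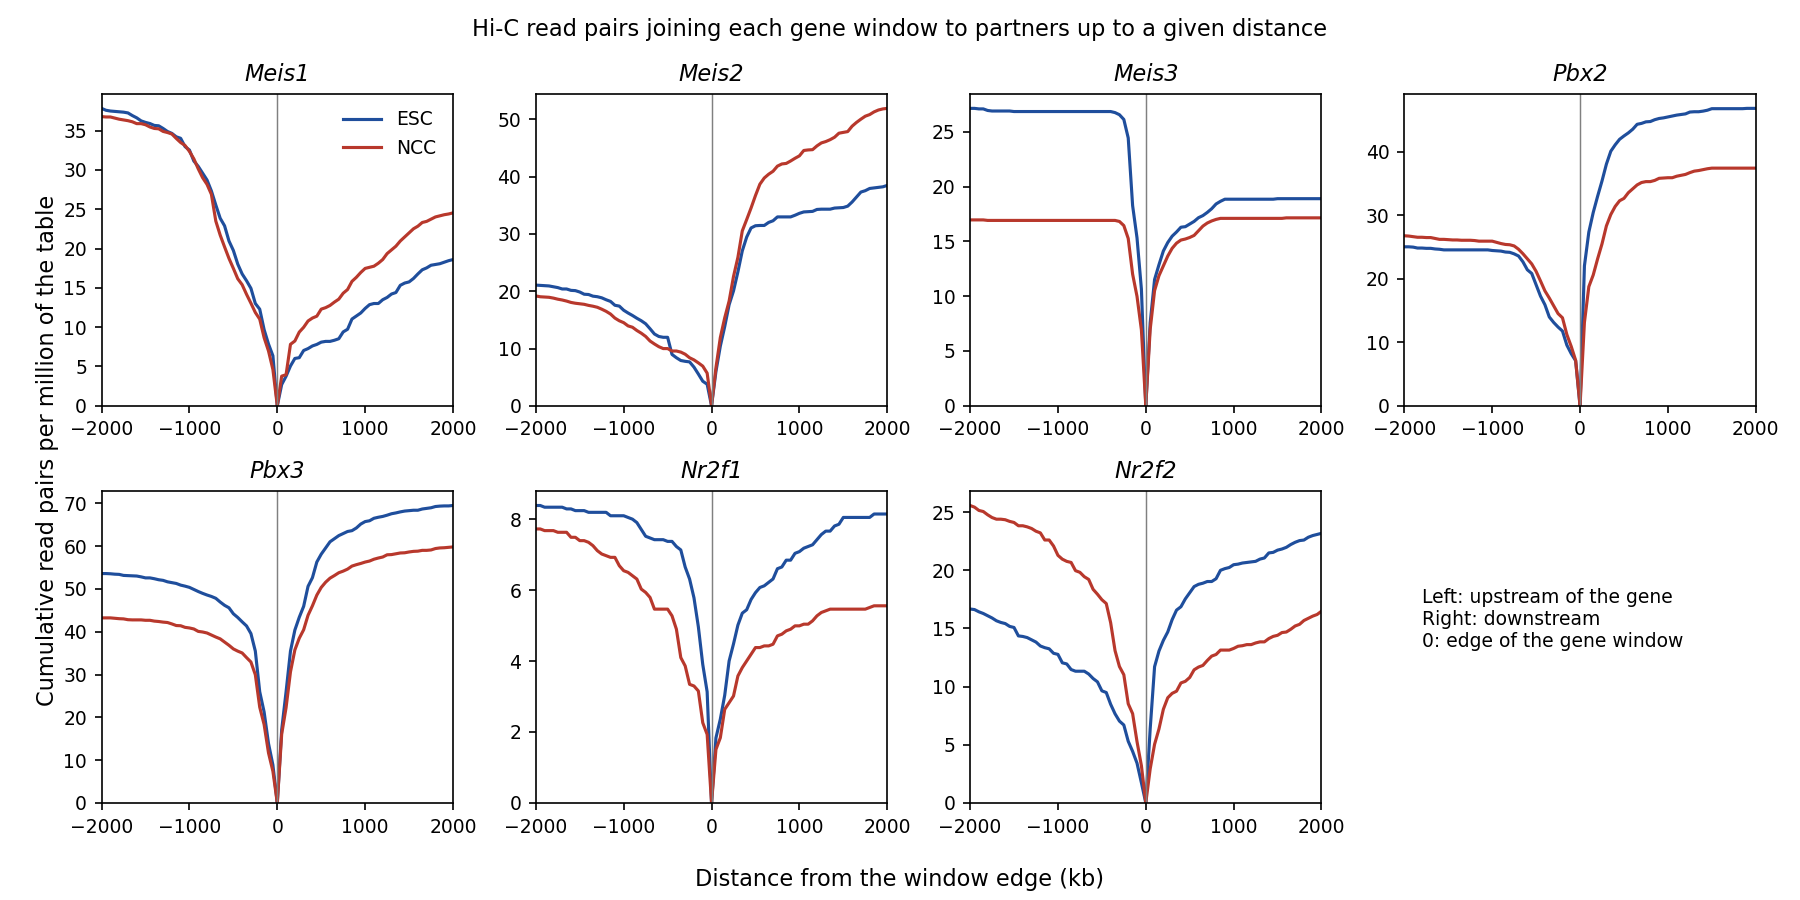
Cumulative Hi-C read pairs per 1000000 of the table that join each gene window to partners up to a given distance in kb, upstream to the left and downstream to the right of the window edge at 0, with ESC in blue and NCC in red and a scale of its own for each gene. The curves of Nr2f2 part in opposite directions on the 2 sides, to 346 ESC and 543 NCC read pairs upstream and 481 and 350 downstream, while those of Pbx3 run lower in NCC on both sides.

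Nr2f2, known for roles in vessels, atria and the nervous system, showed the clearest split. Upstream it had 346 read pairs in ESC and 543 in NCC, a ratio of 1.53 (interval 1.34 to 1.76, exact binomial test, adjusted p = 4.77e-09), above the upstream ratio of 95.4% of genes. Downstream it had 481 and 350, a ratio of 0.711 (interval 0.618 to 0.818, exact adjusted p = 7.69e-06). All ends in the upstream flank had a ratio of 1.22 and partners per covered kb 1.35, while in the downstream flank these were 1.00 and 0.744. The downstream counts were thus lower in a flank that was even, while the upstream counts were higher in a flank that was also higher. Without the 1% strongest anchors the upstream log2 ratio was 0.32 in place of 0.62 (exact adjusted p = 0.0574), while with anchors shared by both cell types only it was 0.63.

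By distance, the upstream excess of Nr2f2 in NCC lay in the near and middle range: 36 and 68 pairs in ESC and NCC within 50 kb, 74 and 113 from 50 to 200 kb, and 90 and 190 from 200 to 500 kb (ratio 2.06, interval 1.60 to 2.68). All ends in these stretches were higher in NCC as well, with ratios of 1.93, 1.58 and 1.74, so that relative to the ends the ratios of Nr2f2 pairs were 0.959, 0.942 and 1.19. The near excess therefore followed the flank. From 500 kb on, the intervals included 1. Downstream, the lower counts lay near the gene, with 132 and 62 pairs within 50 kb (ratio 0.459, interval 0.334 to 0.625) and 158 and 109 from 50 to 200 kb, while 50 and 53 were counted from 500 kb to 1 Mb. Of 10 kb bins at least 100 kb from the window, the one with most Nr2f2 partners was chr7:70510001-70520000, 128 kb upstream and with no annotated gene, with 4 pairs in ESC and 35 in NCC. All ends in this bin went from 114 to 606 and the length of the anchors placed in it from 3522 to 14741 bp. A second bin, 398 kb upstream, had 7 and 20 pairs, with 146 and 377 ends and 5447 and 12294 bp of anchors.

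Meis1, the Hox partner needed in blood stem cells and the limb, had 386 downstream pairs in ESC and 521 in NCC, a ratio of 1.32 (interval 1.15 to 1.51, exact adjusted p = 1.75e-04). All ends in that flank had a ratio of 1.01 and the covered length was 699.7 and 701.1 kb, so the ratio per covered kb was also 1.32. Only on this side were pairs with a member called higher in NCC while the ends of the whole flank stayed even. The Meis1 window itself was not even. It held 4006 Hi-C ends in ESC and 4938 in NCC (not scaled to depth), over 97.9 and 106 covered kb. Whether the downstream ratio goes beyond this change in the window was not tested. By stretch the flank was not even, with ends ratios of 1.32 within 50 kb, 1.11 from 50 to 200 kb and 1.51 from 200 to 500 kb. They were 0.771 from 500 kb to 1 Mb and 1.01 from 1 to 2 Mb. Relative to the ends, the pair ratios in these stretches were 1.06, 1.22, 1.29, 1.57 and 1.13. The strongest part of the Meis1 downstream side lay from 100 to 150 kb, with 27 and 82 pairs (ratio 2.97, interval 1.90 to 4.77). This step is named here because its difference was the largest of that side. All ends in this step were 660 and 1086 and anchors covered 22.7 and 35.5 kb, so the step itself was not even. The 10 kb bin chr11:18750001-18760000 in this step held 13 and 31 Hi-C pairs and 0 and 11 FGFR1 HiChIP pairs, with 259 and 270 Hi-C ends in all. Upstream, the Meis1 total was even, with 785 and 781 pairs (ratio 0.972, interval 0.880 to 1.08), beside a ratio of 0.903 for all ends. Within 50 kb upstream there were 132 and 98 pairs (ratio 0.726, interval 0.553 to 0.949), beside an ends ratio of 0.969. In the farther upstream stretches the intervals included 1. A bin 736 kb upstream had 9 and 28 pairs, with 259 and 616 ends and 3959 and 10398 bp of anchors, and one 186 kb upstream had 27 and 15 pairs with 355 and 348 ends.

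Meis2, expressed in cranial neural crest and forebrain in the embryo, had 798 downstream pairs in ESC and 1102 in NCC, a ratio of 1.35 (interval 1.23 to 1.48, exact adjusted p = 1.37e-09). Here the flank moved with the gene: all ends had a ratio of 1.41, anchors covered 587.9 kb in ESC and 737.9 kb in NCC, and per covered kb the ratio was 1.08. Within 200 kb the counts were close (124 and 141, then 242 and 247), and from 500 kb to 1 Mb they were 45 and 147 (ratio 3.19, interval 2.27 to 4.56), of which 1 and 42 lay from 500 to 550 kb, where anchors covered 4.71 kb in ESC and 30.6 kb in NCC. A bin inside the neighboring gene BC052040, chr2:115610001-115620000, 228 kb downstream, had 9 and 50 pairs, with 111 and 502 ends in all.

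Upstream of Meis2 the total was even, with 437 and 407 pairs (ratio 0.910, interval 0.793 to 1.04), beside a ratio of 1.15 for all ends and 757.7 and 805.9 covered kb. Without the 1% strongest anchors its log2 ratio was -0.32 and passed the test toward ESC (exact adjusted p = 0.00465). The distances within the total differed. Within 50 kb the counts were 78 and 121 (ratio 1.52, interval 1.13 to 2.04), and from 200 to 500 kb 108 and 42 (ratio 0.380, interval 0.260 to 0.548). Most of the latter came from the step at 450 to 500 kb, with 62 pairs in ESC and 9 in NCC (ratio 0.142, interval 0.0620 to 0.287), where all ends were 551 and 341 and anchors covered 24.3 and 19.6 kb. This contact of Meis2 was thus higher in ESC by more than the step itself, and was again named for its size.

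Pbx3, needed for breathing at birth, was lower in NCC in each of 5 distance classes on both sides, with ratios from 0.729 to 0.940, so that no single stretch carried its total. Upstream it had 1112 and 918 pairs (ratio 0.807, exact adjusted p = 9.69e-06) and downstream 1442 and 1270 (0.861, exact adjusted p = 4.14e-04), while all ends in these flanks had ratios of 1.03 and 1.02. Its most frequent far bin, chr2:34030001-34040000, 116.5 kb downstream, had 78 and 63 pairs, and the next, 251.9 kb upstream, 58 and 58. Pbx2, which is widely expressed, differed on the downstream side, with 971 and 794 pairs (ratio 0.799, exact adjusted p = 1.70e-05), and this lay within 50 kb of the window, with 457 and 279 pairs (ratio 0.597, interval 0.512 to 0.694). All ends had a ratio of 0.944 over the flank and 0.741 within 50 kb, where anchors covered 26.2 and 20.6 kb. From 200 kb on, downstream Pbx2 counts were close, such as 197 and 202 from 200 to 500 kb. With a flank of 10 kb the downstream log2 ratio of Pbx2 was 0.09 in place of -0.32. Upstream, Pbx2 had 519 and 568 pairs (ratio 1.07, with 0.978 for all ends), and its log2 ratio of 0.40 with a flank of 10 kb passed the test toward NCC (exact adjusted p = 1.17e-04).

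Nr2f1, needed for cortical area patterning and the inner ear, had 169 downstream pairs in ESC and 118 in NCC, a ratio of 0.682 (interval 0.535 to 0.868, exact adjusted p = 0.00476), with a ratio of 0.987 for all ends in the flank. With anchors shared by both cell types only, this log2 ratio was -0.38 in place of -0.55 (exact adjusted p = 0.134). The Nr2f1 window itself also held fewer Hi-C ends, 1268 in ESC and 815 in NCC, over 23.6 and 18.2 covered kb. Its most frequent far bin, chr13:77980001-77990000 in Fam172a, 184 kb downstream, had 14 pairs in ESC and 1 in NCC, where all ends were 160 and 38 and anchors covered 7405 and 1729 bp. Upstream, Nr2f1 had 174 and 164 pairs in all, but 65 and 41 within 50 kb, 55 and 29 from 50 to 200 kb, and 6 and 25 from 1 to 2 Mb (ratio 4.07, interval 1.63 to 12.1). All ends in this flank had a ratio of 1.31, with 329.0 and 473.2 covered kb, and from 1 to 2 Mb a ratio of 1.32, with 163.5 and 251.1 kb. Meis3 had 563 and 360 upstream pairs (0.625) and 392 and 364 downstream (0.908). The covered length of its upstream flank was 361.7 kb in ESC and 220.4 kb in NCC, per covered kb the ratio was 1.03, all ends had ratios of 0.751 upstream and 0.983 downstream, and both sides turned direction with a flank of 10 kb.

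**Figure D3:**
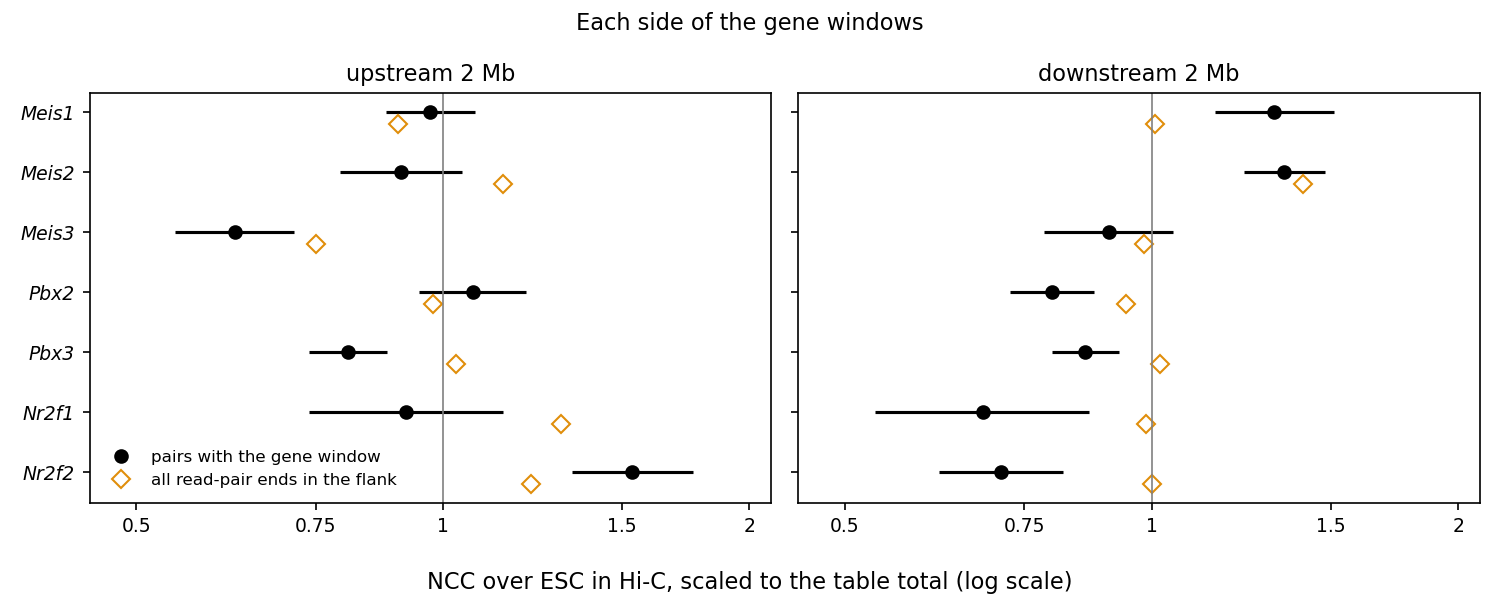
Hi-C read pairs of each gene window with the upstream 2 Mb (left) and the downstream 2 Mb (right), as NCC over ESC scaled to the table total, on a log scale. Filled points are pairs with the window with 95% exact intervals from counting error, open diamonds are all read-pair ends in that flank, and Nr2f2 lies at 1.53 upstream and 0.711 downstream, and Meis1 at 1.32 downstream beside a diamond at 1.01.

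Reach was taken as the share of Hi-C partners within 2 Mb that lay 200 kb or more from the window. It was higher in NCC by Fisher's exact test, adjusted over 19913 genes, for 2 of 7 members (Nr2f1 and Nr2f2) and lower for none, against 5.37% of all genes in the first direction and 6.70% in the second (12.1% in either). For Nr2f1 the share was 40.8% (Wilson interval 35.7% to 46.1%) in ESC and 53.9% (48.1% to 59.6%) in NCC (Fisher's exact test, adjusted p = 0.0189). For Nr2f2 it was 51.6% (48.2% to 55.0%) and 60.6% (57.3% to 63.7%, exact adjusted p = 0.00510). Over both sides the median distance of partners went from 164 to 265 kb for Nr2f1 and from 210 to 290 kb for Nr2f2. The single sides did not all go this way: the median went from 204 to 174 kb downstream of Nr2f1 and from 392 to 343 kb upstream of Nr2f2, each with overlapping intervals. The 90th percentile of Nr2f2 partners was 1429 and 1379 kb over both sides, and upstream it went from 1482 kb (interval 1451 to 1690) to 1194 kb (1082 to 1318). Over both sides, partners within 50 kb went from 103 to 73 for Nr2f1 and from 168 to 130 for Nr2f2, while those from 200 to 500 kb went from 73 to 79 and from 175 to 248. Upstream of Nr2f1 all ends shifted as well, with ratios of 0.850 within 50 kb and 0.739 from 50 to 200 kb. They were 1.67 from 200 to 500 kb and 1.86 from 500 kb to 1 Mb. Relative to the ends, the Nr2f1 pair ratios in these farther stretches were 0.8145 and 0.8059, and 3.08 from 1 to 2 Mb. Downstream, the ends ratios were 1.34, 0.743, 1.05 and 0.968 over the same stretches up to 1 Mb.

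The Nr2f1 difference of 13.1 percentage points was 5.38 with anchors shared by both cell types only (exact adjusted p = 0.604), and that of Nr2f2, 8.95 points, was 2.34 when far was set at 500 kb and 3.57 with a window flank of 50 kb. Both calls on reach therefore depend on the choice of anchor set, distance or window. The order of the members was the same in both cell types except that Nr2f1 passed Pbx3 in NCC. Meis1 reached farthest, with 67.5% in ESC, above 97.7% of genes, and 68.6% in NCC. Meis2 had 59.0% and 63.0% (exact adjusted p = 0.162), Pbx3 46.1% and 43.6%, and Pbx2 37.7% and 42.4% (exact adjusted p = 0.0820). Meis3 had the shortest reach, 16.2% and 17.8%, with an ESC share above that of 1.22% of genes. The Wilson intervals of Meis3 lay below, and those of Meis1 above, the intervals of every other member in ESC.

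**Figure D4:**
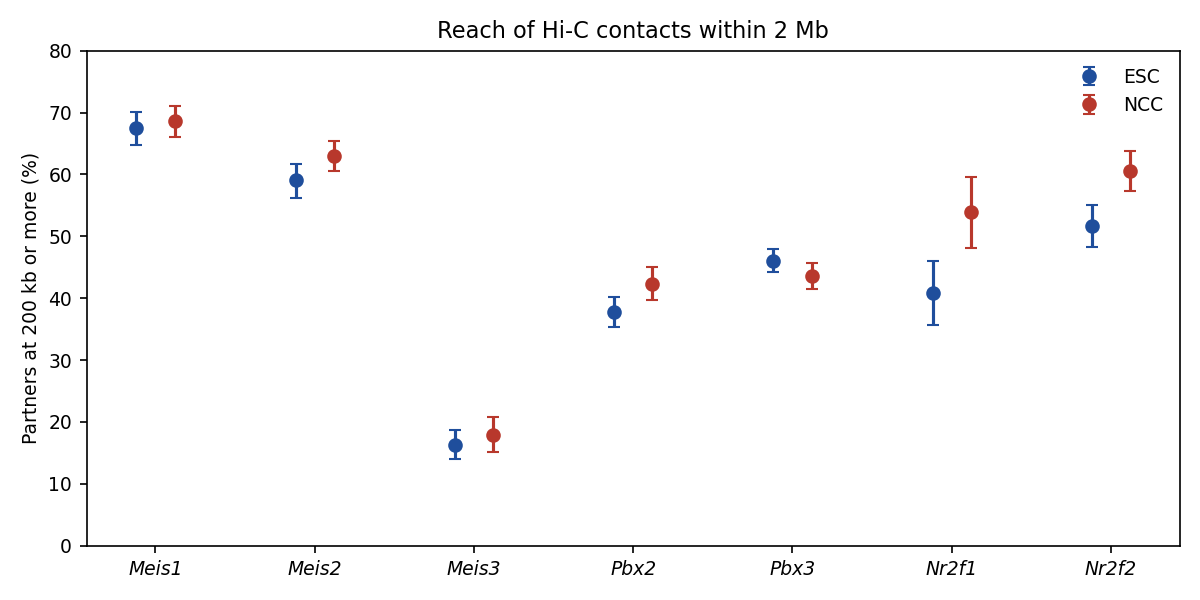
Share of Hi-C partners within 2 Mb that lie 200 kb or more from the window, in percent, for ESC (blue) and NCC (red), with 95% Wilson intervals from counting error. Intervals of the cell types do not overlap for Nr2f1 (40.8% and 53.9%) and Nr2f2 (51.6% and 60.6%), and Meis3 is lowest in both (16.2% and 17.8%).

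In the antibody libraries the same shares rest on fewer pairs. For Nr2f1 in FGFR1 HiChIP, 10 of 24 partners were far in ESC and 45 of 62 in NCC (41.7% and 72.6%), and for Nr2f2 88 of 154 and 158 of 225 (57.1% and 70.2%). For Meis2 the order was turned, with 72.7% in ESC against 64.5% in NCC. Of the CTCF HiChIP partners of Pbx3, 62.0% and 44.9% were far. These differences were not tested.

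A desert was the stretch from the window edge to the nearest coding gene. Nr2f2 lies between a desert of 962 kb upstream, up to Gm10295, and one of 1583 kb downstream, up to Arrdc4. The upstream desert took 250 Hi-C pairs or 30.2% of Nr2f2 partners in ESC and 446 or 49.9% in NCC, a ratio of 1.74, and the downstream desert 456 or 55.1% in ESC and 311 or 34.8% in NCC, a ratio of 0.667. The larger share lay in the downstream desert in ESC and in the upstream desert in NCC. The upstream desert as a whole had 8280 and 13714 ends (ratio 1.62) and 320.7 and 447.8 covered kb, and the downstream desert had an ends ratio of 0.927. In the antibody libraries the upstream desert likewise had more pairs with Nr2f2 in NCC, 53 and 110 in FGFR1 HiChIP (ratio 1.73, interval 1.23 to 2.44) and 23 and 48 in CTCF HiChIP (2.41). The downstream desert had 80 and 81 FGFR1 pairs (ratio 0.841, interval 0.610 to 1.16) and 27 and 37 CTCF pairs (ratio 1.58, interval 0.936 to 2.70).

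Meis1 has a desert of 906 kb downstream, up to Etaa1, which took 238 pairs (20.3%) in ESC and 347 (26.7%) in NCC, a ratio of 1.43 (interval 1.21 to 1.69), beside an ends ratio of 1.11. Its upstream desert of 885 kb, up to Spred2, took 625 (53.4%) and 631 (48.5%) in Hi-C, while CTCF HiChIP counted 52 pairs there in ESC and 23 in NCC (ratio 0.510, interval 0.298 to 0.848). Meis2 has a desert of 793 kb upstream, up to Tmco5, with 308 and 266 pairs (ratio 0.844), and one of 64.3 kb downstream with 144 and 189. Nr2f1 has no coding gene within 2 Mb upstream, where 50.7% of its partners lay in ESC and 58.2% in NCC. Pbx3 had 906 and 817 pairs with a downstream desert of 264 kb, up to Mvb12b. Meis3 and Pbx2 have no desert on either side, since other genes reach into their windows. Noncoding genes lie in most of these deserts, and ending deserts at them would leave none beside Nr2f1 and Nr2f2.

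FGFR1 HiChIP partner counts were shifted for all genes, with a median ratio of 0.874 over 18639 genes, so ratios relative to that median are given as well. Of 7 members, 2 (Meis2 and Nr2f1) were called higher in NCC, against 18.1% of genes, and none in ESC, against 40.7% (58.9% either way). The same 2 passed the exact binomial test, against 10.3% of genes toward NCC and 27.9% toward ESC (38.2% either way). Meis2 had 194 pairs in ESC and 335 in NCC, a ratio of 1.44 (interval 1.20 to 1.72, exact adjusted p = 4.10e-04), or 1.64 relative to all genes. Downstream these were 137 and 264 pairs, and upstream 57 and 71. Nr2f1 had 24 and 62 pairs, a ratio of 2.15 (interval 1.32 to 3.60, exact adjusted p = 0.00553), or 2.46 relative to all genes, while its Hi-C ratio was 0.804. The Nr2f1 call was lost with a flank of 50 kb (log2 ratio 0.45 in place of 1.10) and with partners within 1 Mb (0.80).

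The anchors of the Nr2f1 window covered 7.03 kb in ESC and 17.04 kb in NCC in FGFR1 HiChIP, and its partners per covered kb and 1000000 read pairs of the table were 1.28 and 1.14. The higher Nr2f1 count therefore came with a longer called length. Its strongest CTCF region, chr13:78189522-78196939 within the gene, held 17 FGFR1 ends in ESC and 82 in NCC, but 24 and 11 CTCF ends. Nr2f2 had 154 and 225 FGFR1 pairs (ratio 1.21, or 1.39 relative to all genes, exact adjusted p = 0.142), with 71 and 138 upstream (ratio 1.62, interval 1.21 to 2.18) and 83 and 87 downstream. With anchors shared by both cell types only, the log2 ratio of Nr2f2 was 0.59 in place of 0.28 and passed the test, while that of Meis2 was 0.21 in place of 0.52 and did not. Meis1 (166 and 211), Meis3 (35 and 48), Pbx2 (89 and 98) and Pbx3 (311 and 325) had intervals that included 1. Relative to all genes their ratios were 1.21, 1.31, 1.05 and 0.994, so Pbx2, at 0.915 before this scaling, lay on the other side of 1.

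CTCF HiChIP was the shallowest assay, and 6 of 7 members had the 50 pairs needed for a test. Of these 6, 3 (Meis2, Nr2f2 and Pbx3) were called higher in NCC, against 28.1% of 13712 genes, and 1 (Meis3) in ESC, against 28.9% (57.0% either way). The same 3 and 1 passed the exact binomial test, against 7.58% and 7.65% of genes (15.2% either way). The median ratio of these 6 was 1.34, and that of all genes 0.995. Meis2 had 71 pairs in ESC and 144 in NCC, a ratio of 2.34 (interval 1.75 to 3.15, exact adjusted p = 8.60e-07), above 97.3% of genes, with 45 and 106 downstream and 26 and 38 upstream. Nr2f2 had 54 and 98, a ratio of 2.09 (interval 1.49 to 2.97, exact adjusted p = 5.25e-04), with 26 and 59 upstream and 28 and 39 downstream.

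Pbx3 had 92 and 118 CTCF HiChIP pairs, a ratio of 1.48 (interval 1.12 to 1.96, exact adjusted p = 0.0411), beside a Hi-C ratio of 0.837. Meis3 had 39 and 14 (0.414, interval 0.208 to 0.779, exact adjusted p = 0.0342), of which the anchor across its upstream edge held 20 in ESC and 5 in NCC. Meis1 had 80 and 60 (0.865, interval 0.608 to 1.22), but 61 and 28 upstream (ratio 0.529, interval 0.326 to 0.841) and 19 and 32 downstream (1.94, interval 1.07 to 3.63). Pbx2 had 39 and 41, and Nr2f1, which was not tested, 10 and 16. The log2 ratio of Nr2f2 was 0.21 in place of 1.07 without the 1% strongest anchors of each library. The Pbx3 call was lost with other windows and scalings.

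Set against Hi-C over the same windows, read-pair ends in the antibody libraries divided the members into 2 sets in ESC. Scaled to the table totals, FGFR1 HiChIP ends over Hi-C ends in ESC were 1.51 at Nr2f2, 1.29 at Meis1, 1.18 at Pbx3 and 1.14 at Meis2, above the median of all genes of 0.816, and 0.452 at Pbx2, 0.369 at Nr2f1 and 0.274 at Meis3, below it. In NCC, Nr2f1 was at 1.36 (interval 1.14 to 1.61) and had moved above the median of 0.721, Nr2f2 at 1.59 and Pbx3 at 1.30, while Pbx2 (0.551) and Meis3 (0.386) were still below it. Per covered kb, FGFR1 over Hi-C at Nr2f1 was 1.24 in ESC and 1.45 in NCC, so most of its move came with a longer called length in FGFR1 HiChIP and a shorter one in Hi-C. These are levels of 1 library over another, so a low value can come with a high Hi-C level, as at Pbx2.

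For CTCF, the ratio of HiChIP over Hi-C ends at Nr2f2 was 1.12 (interval 0.943 to 1.33) in ESC and 2.37 (2.06 to 2.73) in NCC, the latter above 98.2% of genes. At Meis2 it was 1.00 and 1.66, at Nr2f1 0.363 and 1.48, at Pbx3 1.04 and 1.38, and at Pbx2 0.434 and 0.760. Meis1 went the other way, with 1.20 and 0.912, and Meis3 had 0.432 and 0.450. All-gene medians were 0.865 and 0.823. Per covered kb the ratio was 1.83 and 2.76 at Nr2f2, 2.20 and 3.22 at Meis2, and 0.964 and 1.95 at Nr2f1. The strongest CTCF region of each window, by ends in both cell types together, did not always follow these ratios. That of Nr2f2, chr7:70356902-70369405, which holds the gene start, had 42 CTCF ends in ESC and 91 in NCC, with 908 and 905 in Hi-C. That of Meis2, chr2:115858898-115861941, just beyond its 3′ end, had 20 and 60 with 349 and 367 in Hi-C. At Meis1 the strongest region also had more CTCF ends in NCC (17 and 41), while at Nr2f1 (24 and 11) and Meis3 (28 and 14) it had fewer. At Pbx3 (36 and 29) and Pbx2 (37 and 31) the counts were slightly lower in NCC. These counts are not scaled to depth, and the CTCF libraries held 1218098 read pairs in ESC and 1056437 in NCC. The differences at Pbx3 and Pbx2 are therefore not read as lower. Over the whole windows and relative to Hi-C, Meis1 was by contrast lower in NCC and Nr2f1 higher. Pbx3 and Pbx2 were also higher by that ratio. None of the CTCF cores printed above lay in the strongest CTCF region of its gene.

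**Figure D5:**
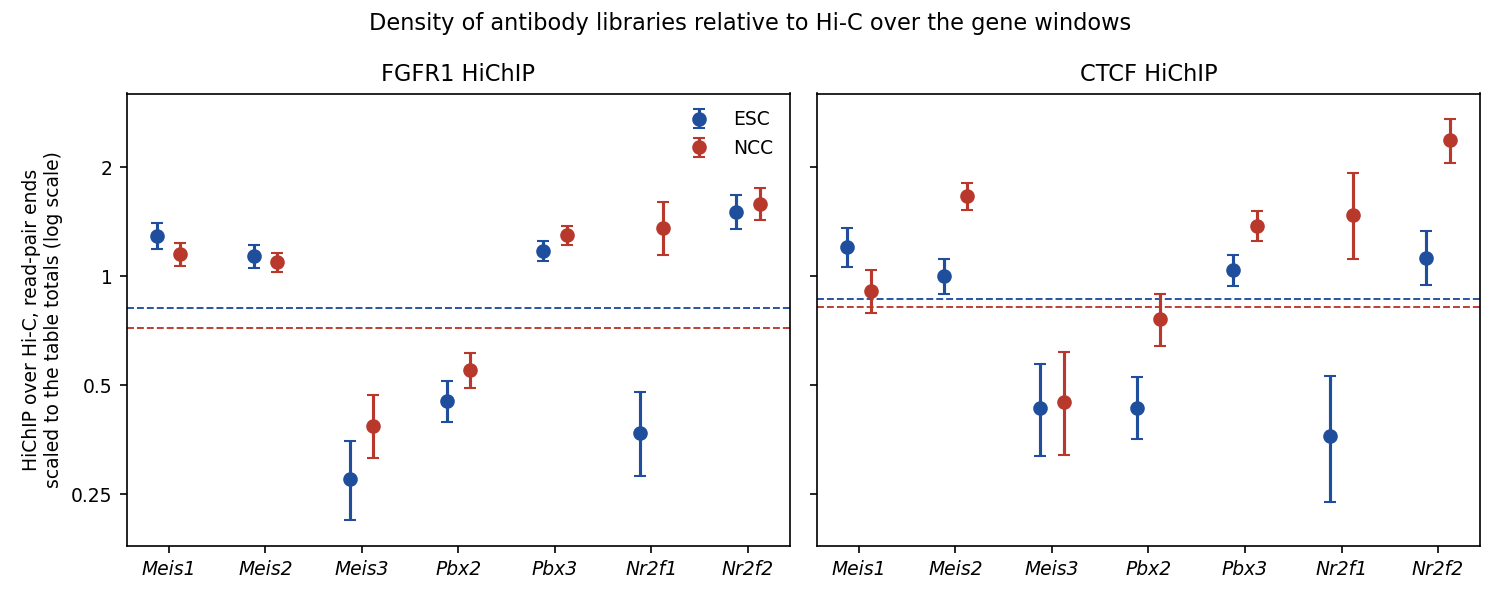
Read-pair ends in FGFR1 HiChIP (left) and CTCF HiChIP (right) over Hi-C ends in the same gene window, scaled to the table totals, on a log scale, for ESC (blue) and NCC (red). Bars are 95% exact intervals from counting error and dashed lines the medians of all genes in each cell type, and Nr2f1 goes from 0.369 to 1.36 for FGFR1, and Nr2f2 from 1.12 to 2.37 for CTCF.

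Contacts with other chromosomes were a small part of each window. In Hi-C their share of window read pairs ran from 7.51% (Nr2f2) to 13.2% (Pbx3) in ESC and from 8.76% (Nr2f2) to 17.2% (Pbx3) in NCC. It was higher in NCC for all 7 members, as it was for the median of all genes, 13.0% and 14.9%. Between members on different chromosomes, 1 Hi-C read pair was counted in ESC and 0 in NCC over 19 pairs of windows, which allows up to 3.69 by the exact Poisson interval. Between members and the Hox clusters, whose products the Meis and Pbx proteins bind, 4 pairs were counted in ESC and 2 in NCC over 25 combinations, where the inter-chromosomal totals of the windows give an expected 1.24 and 1.93. The exact intervals (1.09 to 10.2 in ESC and 0.242 to 7.23 in NCC) included these, so no contact between the members and Hox was detectable at this depth beyond that number.

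A list of 15 genes of the same families and of the retinoic acid response was described in the same way, by counts. In Hi-C, 2 of 15 (Dhrs3 and Cdx1) were called higher in NCC and 1 (Nr2f6) in ESC, against 11.0% and 21.2% of all genes, with a median ratio of 1.07 beside 0.951. By the exact test 8 of 15 were higher in NCC and 3 in ESC, against 21.3% and 38.2%. Dhrs3, a retinaldehyde reductase, had 351 and 785 pairs (ratio 2.19, exact adjusted p = 1.31e-34). Nr2f6, the remaining member of the Nr2f family in this list, had 1472 and 1115 (0.740, exact adjusted p = 3.34e-13), so that in Hi-C the 3 Nr2f genes lay at 0.740, 0.804 and 1.06. By reach, 0 of the 15 were higher in NCC and 3 lower by Fisher's exact test, namely Cyp26a1, Stra6 and Dhrs3 (34.8% and 27.8% for Cyp26a1), against 5.37% and 6.70% of all genes. In FGFR1 HiChIP 4 of 15 were called higher in NCC and 7 in ESC, against 18.1% and 40.7%, and 2 and 4 passed the exact test, against 10.3% and 27.9%. In CTCF HiChIP 3 and 2 of 13 tested were called, against 28.1% and 28.9%, and 1 and 1 passed the exact test, against 7.58% and 7.65%. Rarb, the retinoic acid receptor gene that retinoic acid itself turns on, had 58 and 168 FGFR1 pairs (ratio 2.41) and 9 and 53 CTCF pairs (ratio 6.79), the largest CTCF ratio of the list, for which it is named here.

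The genes most like each member were found by the Hellinger distance between the shares of Hi-C partners over 20 classes of side, distance and cell type, where 0 is the same profile. The nearest gene was Apba1 for Pbx3 (0.0562), Xpo5 for Pbx2 (0.0677), Kcnmb1 for Nr2f1 (0.0918), Dab1 for Nr2f2 (0.0959), Polr3d for Meis3 (0.0995), Cntln for Meis1 (0.104) and Tnfsf13b for Meis2 (0.108). The genes compared were those with at least 500 partner pairs in each Hi-C library, 13350 to 13534 by member, and Nr2f1 itself lies below that number. The median distance to these genes ran from 0.197 (Pbx3) to 0.348 (Meis1). No member was the nearest gene of another, and by this median the profile of Meis1 was the farthest from those of the genes compared.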

How the data were processed

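Contacts were measured by Hi-C, FGFR1 HiChIP and CTCF HiChIP in ESC and NCC. In the deposited tables each score is a whole-number count of read pairs joining a pair of anchors. The authors aligned reads to mm10 through HiC-Pro, called anchors in each library from all of its reads by hichipper, and merged 2 replicates. They also state that valid pairs were normalized between ESC and NCC. How this bears on the deposited counts, whose totals differ, is not given in the sources used here. Tool versions are not given in the sources used here. Depth was 1056437 to 21228099 read pairs per table on 20 chromosomes, which makes CTCF HiChIP the least precise.

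Gene windows came from GENCODE vM21 (GRCm38). Counts were scaled to the table total. Every protein-coding gene with at least 50 pairs was tested by a two-sided exact binomial test (reach by Fisher's exact test), adjusted over all genes by Benjamini-Hochberg at 0.05, using SciPy 1.17.1, numpy 2.4.6 and pandas 2.3.3 in Python 3.11.15. Scripts were tested on simulated data. Bins of 10 kb were named for the most partners at 100 kb or more, 3 per gene, and steps of 50 kb for the largest difference. Alternatives were window flanks, scalings, score and distance limits, and anchor sets. The members, the list of 15 genes and the rules were chosen with earlier results of these data known. Of that list, 1 further gene is not reported here.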

Additional observations from a re-analysis of the deposited data

How the results depend on the processing

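No paired analysis was possible because the replicates were merged before deposit and each combination of cell type and assay is 1 pooled library. Of 328 alternative values for the members, 244 kept their direction and their side of the threshold, or moved within their interval, and of 130 alternative counts of genes 100 stayed within 1.5 times. Genes called by size had counts higher by 25% or more in 1 cell type. Most of the rest follow, as log2 NCC over ESC unless stated. Causes were not tested. Depth limits CTCF HiChIP most.

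With a window flank of 10 kb, Hi-C gave 0.26 for Meis3 (main -0.43; 0.24 upstream and 0.28 downstream), 0.22 for Pbx2 (main -0.16; 0.40 upstream and 0.088 downstream), -0.51 for Nr2f1 upstream, the reach of Meis3 differed by -3.42 points, FGFR1 gave -0.070 for Meis1 and CTCF 0.33 for Pbx3. With 50 kb, Hi-C gave 0.16 for Meis1 (upstream 0.037), -0.054 for Pbx2, -0.18 for Nr2f1 (upstream 0.10) and 0.20 for Nr2f2. Reach then differed by -0.78 points for Meis1, 6.92 for Meis2, -0.52 for Meis3, -2.01 for Pbx2 and 3.57 for Nr2f2, and 1756 genes had a higher far share in NCC (main 1069). FGFR1 gave -0.11 for Meis1, -0.27 for Meis3, -0.36 for Pbx3 and 0.45 for Nr2f1, and CTCF 0.094 for Meis1, -0.26 for Pbx2 and 0.41 for Pbx3.

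With anchors placed by midpoint, Hi-C gave 0.32 for Meis3 (0.38 upstream and 0.26 downstream) and -0.0032 for Pbx2 (0.25 upstream and -0.16 downstream), FGFR1 -0.14 for Meis1 and CTCF 0.36 for Pbx3. Without anchors across a window edge, chosen after seeing the data, Meis3 was at 0.070. Without the 1% strongest anchors, Hi-C gave 0.15 for Meis1, 0.045 for Meis2, -0.14 for Nr2f2 (0.32 upstream), and upstream -0.32 for Meis2 and -0.092 for Pbx2, the Pbx2 reach differed by 13.0 points, FGFR1 gave -0.084 for Meis1, -1.67 for Pbx2 and -0.24 for Nr2f2, and CTCF 0.21 for Nr2f2.

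With anchors shared by both cell types only, also chosen after seeing the data, Hi-C gave 0.11 for Meis2, -0.092 for Pbx2 and -0.38 for Nr2f1 downstream, with 1467 genes called by size toward NCC (main 2209). The Nr2f1 reach differed by 5.38 points, and 514 and 766 genes had a higher far share in NCC and in ESC (main 1069 and 1334). FGFR1 gave 0.21 for Meis2 and 0.59 for Nr2f2, with 4589 genes called by size toward ESC (main 7594) and 318 and 1033 past the test toward NCC and ESC (main 1911 and 5208). CTCF gave 0.59 for Pbx3 and 0.79 for Nr2f2, neither past the test, with 1595 and 908 genes called by size (main 3852 and 3957) and 80 and 21 past the test (main 1039 and 1049).

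With scores of at least 2 only, Hi-C gave 0.23 for Nr2f2, with 3453 genes called by size toward NCC. Reach differed by -4.33 points for Meis2 and 12.5 for Nr2f1, with 2097 genes higher in ESC. FGFR1 gave 1.51 for Meis1 and 0.10 for Pbx2, with 1834 and 3412 genes called by size toward NCC and ESC and 674 and 1725 past the test, and CTCF had 317 and 110 called by size and 150 and 31 past the test.

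Scaled to a median ratio of 1 over genes, Hi-C gave 0.19 for Meis1, -0.090 for Pbx2 and -0.24 for Nr2f1, and FGFR1 0.067 for Pbx2 and 0.48 for Nr2f2, with 5218 genes called by size toward NCC (main 3379) and 3126 and 3141 past the test toward NCC and ESC. Scaled to intra-chromosomal pairs up to 2 Mb, Meis1 was at 0.14 in Hi-C and Pbx3 at 0.47 in CTCF. With partners within 1 Mb, Meis1 was at 0.15 in Hi-C and Nr2f1 at 0.80 in FGFR1, and the Nr2f1 reach differed by 11.4 points. With far from 100 kb, reach differed by -1.81 points for Meis2, -1.76 for Meis3, 5.70 for Pbx2 and 7.05 for Nr2f1, and from 500 kb by 7.20 for Meis2, -0.27 for Meis3, 6.35 for Nr2f1 and 2.34 for Nr2f2, with 609 and 405 genes higher in NCC and ESC. A fold of 1.5 left 916 and 1868 genes in Hi-C. By the methods' paired test over 10 kb bins, Meis2 (0.26), Pbx2 (-0.16) and Nr2f1 (-0.32) did not pass, and 1705 and 3459 genes did (main 4267 and 7655). With deserts ended by any annotated gene, the Meis1 upstream desert was at -0.40 (main -0.019) and the Pbx3 downstream desert at -0.015 (main -0.18), and those of Nr2f1, Nr2f2, Meis1 downstream and Meis2 upstream had no length and gave no value.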
